A study of Mus musculus with 28 samples.

Results

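The organic anion transporters of the kidney proximal tubule were described here by 10 genes, taken by symbol from a table of 14845 genes: Slc22a6, Slc22a8, Slc22a7, Slc22a12, Slc22a30, Slco1a1, Slco1a6, Slco4c1, Abcc2 and Abcc4. All 10 passed the filter on low values, which left 13495 genes for testing. Whole-kidney RNA of male mice had been sequenced in 28 libraries to study severe kidney disease of diabetes. Controls were intact db/m mice aged 26 weeks (n = 5) or 35 weeks (n = 6). Diseased animals were db/db mice that had lost 1 kidney by uninephrectomy (db/db Unx), aged 26 weeks (n = 12) or 35 weeks (n = 5). The db/db mouse carries a mutated leptin receptor in all its cells and becomes obese and diabetic. Every db/db mouse was operated on and every db/m mouse was intact, so that genotype and surgery cannot be told apart, and the age at surgery was not given in the sources used here. Labels do not state that libraries and animals match 1 to 1. This was assumed, and p-values measure the spread between libraries.

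The proximal tubule removes drugs, toxins and metabolic waste from the blood by tubular secretion. On the blood side, organic anion transporters of the Slc22 family take up substrates in exchange for dicarboxylates such as alpha-ketoglutarate, which other carriers return to the cell. On the urine side, ATP-driven pumps of the Abcc family and exchangers release the substrates, and Slc22a12 works there in the other direction to reclaim urate. The Slco genes encode organic anion transporting polypeptides, which carry bile acids, conjugated steroids, thyroid hormones and drugs.

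The 250 bases before the RefSeq start site on GRCm38.p6 are shown for 5 transporters, chosen with their values known: the neighbours Slc22a6 and Slc22a8, and Slco1a1, Slc22a30 and Abcc4 as genes with large differences. They are those of Slc22a6 (chr19:8617746-8617995, plus strand), Slc22a8 (chr19:8592932-8593181, plus strand), Slco1a1 (chr6:141946963-141947212, minus strand), Slc22a30 (chr19:8405106-8405355, minus strand) and the first of the RefSeq starts of Abcc4 (chr14:118706220-118706469, minus strand). Each is written 5′ to 3′ on the strand of the gene, and capitals mark GTTAAT, a core of the site bound by HNF1 factors, which drive many tubule genes.
Slc22a6: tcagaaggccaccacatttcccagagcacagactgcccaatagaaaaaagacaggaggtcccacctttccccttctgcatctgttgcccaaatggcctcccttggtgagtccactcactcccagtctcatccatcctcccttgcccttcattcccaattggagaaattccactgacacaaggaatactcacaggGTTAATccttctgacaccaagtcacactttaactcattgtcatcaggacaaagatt
Slc22a8: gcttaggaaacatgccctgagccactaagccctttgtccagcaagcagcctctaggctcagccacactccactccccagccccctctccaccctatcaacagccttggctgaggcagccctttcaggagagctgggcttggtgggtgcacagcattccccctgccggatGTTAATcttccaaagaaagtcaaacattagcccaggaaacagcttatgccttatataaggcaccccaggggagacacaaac
Slco1a1: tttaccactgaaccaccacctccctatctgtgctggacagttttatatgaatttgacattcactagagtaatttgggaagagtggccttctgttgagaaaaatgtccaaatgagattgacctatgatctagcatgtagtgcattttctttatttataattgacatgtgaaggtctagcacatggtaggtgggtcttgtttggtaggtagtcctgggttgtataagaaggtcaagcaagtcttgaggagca
Slc22a30: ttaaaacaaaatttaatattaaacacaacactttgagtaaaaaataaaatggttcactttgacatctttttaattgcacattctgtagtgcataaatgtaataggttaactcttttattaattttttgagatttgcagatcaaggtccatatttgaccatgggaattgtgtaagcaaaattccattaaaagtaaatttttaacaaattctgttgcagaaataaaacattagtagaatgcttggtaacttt
Abcc4: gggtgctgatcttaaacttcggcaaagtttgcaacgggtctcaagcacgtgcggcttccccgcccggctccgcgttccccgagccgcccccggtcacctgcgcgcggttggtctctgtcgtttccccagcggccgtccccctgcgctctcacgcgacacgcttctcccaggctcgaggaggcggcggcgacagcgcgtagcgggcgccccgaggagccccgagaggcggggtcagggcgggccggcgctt

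GTTAAT lay 56 bases before the start of Slc22a6 and 81 bases before that of Slc22a8. It was found on either strand in 2 of the 10 member promoters in RefSeq, which cover 9 of the 10 genes, and in 7.10% of 32851 promoters of the same 300 bases (250 before and 50 after the start). The HNF4 sequence CAAAGTCCA was in 0 of the 10 and in 0.475% of all. TTCNNNGAA, a core recognised by STAT and BCL6 factors, was in the first Abcc4 promoter alone, just after the start, and in 8.30% of all. The short androgen receptor element TGTTCT was in the promoters of Slco4c1 and the second start of Abcc4, and in 19% of all. None of the motifs searched overlapped another, and a match describes letters, not a bound site. Within the 250 bases, the share of G and C was 25.6% for Slc22a30, 40.4% for Slco1a1, 48.4% for Slc22a6, 55.2% for Slc22a8 and 72.0% for Abcc4.

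In intact db/m kidneys the transporters spanned more than 2 orders of magnitude. Levels of different genes were compared as the deposited, scaled value per kilobase of annotated exon. At 26 weeks Slc22a12 stood at 382 ± 79.9 per kilobase (SD, n = 5) and Slc22a6, the para-aminohippurate transporter OAT1, at 352 ± 29.9, which did not differ beyond their spread. Slco1a1 (120 ± 23.1), Slc22a8 (120 ± 15), Slc22a7 (106 ± 14.9) and Slc22a30 (95.7 ± 12.1) followed with overlapping ranges, then Slco1a6 (65.5 ± 9.25) and the pump gene Abcc2 (18.1 ± 1.65). The lowest were Abcc4 (2.66 ± 0.627) and Slco4c1 (2.03 ± 0.422), whose ranges also overlapped. In db/db Unx kidneys of 26 weeks Slc22a12 (258 ± 36.0, n = 12), Slc22a6 (256 ± 21.3) and Slc22a8 (131 ± 23.0) were the leading 3, and Abcc4 at 14.7 ± 2.94 lay close to Abcc2 at 17.3 ± 1.75. There, Slco1a1 had moved to eighth place with 4.72 ± 3.35 and Slc22a7 to ninth with 3.69 ± 1.58. At 35 weeks Slco1a1 was the lowest of the 10, at 0.419 ± 0.402 per kilobase (n = 5).

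The disease comparison, db/db Unx against db/m, asked how far each transporter differed in the diseased kidney. At 26 weeks 6 of the 10 genes were lower (Slc22a6, Slc22a7, Slc22a12, Slc22a30, Slco1a1 and Slco1a6) and 1 was higher (Abcc4), where 17.7% of all genes tested were called lower and 17.2% higher (limma, Benjamini-Hochberg adjusted p below 0.05). At 35 weeks the counts were again 6 lower and 1 higher, for the same genes, against 16.4% and 15.9% of all genes. The median log2 difference of the 10 genes was -0.50 at 26 weeks and -0.58 at 35 weeks, and that of all genes tested was 0.02 and 0.01. Slc22a8, Slco4c1 and Abcc2 were called at neither age. The values of 5 transporters were lower in every db/db Unx library than in every db/m library at 26 weeks, as were 7.68% of all genes, and 1 was higher in every one, as were 5.11%. At 35 weeks 6 were lower without overlap (10.3% of all genes) and 2 higher (7.84%).

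**Figure D1:**
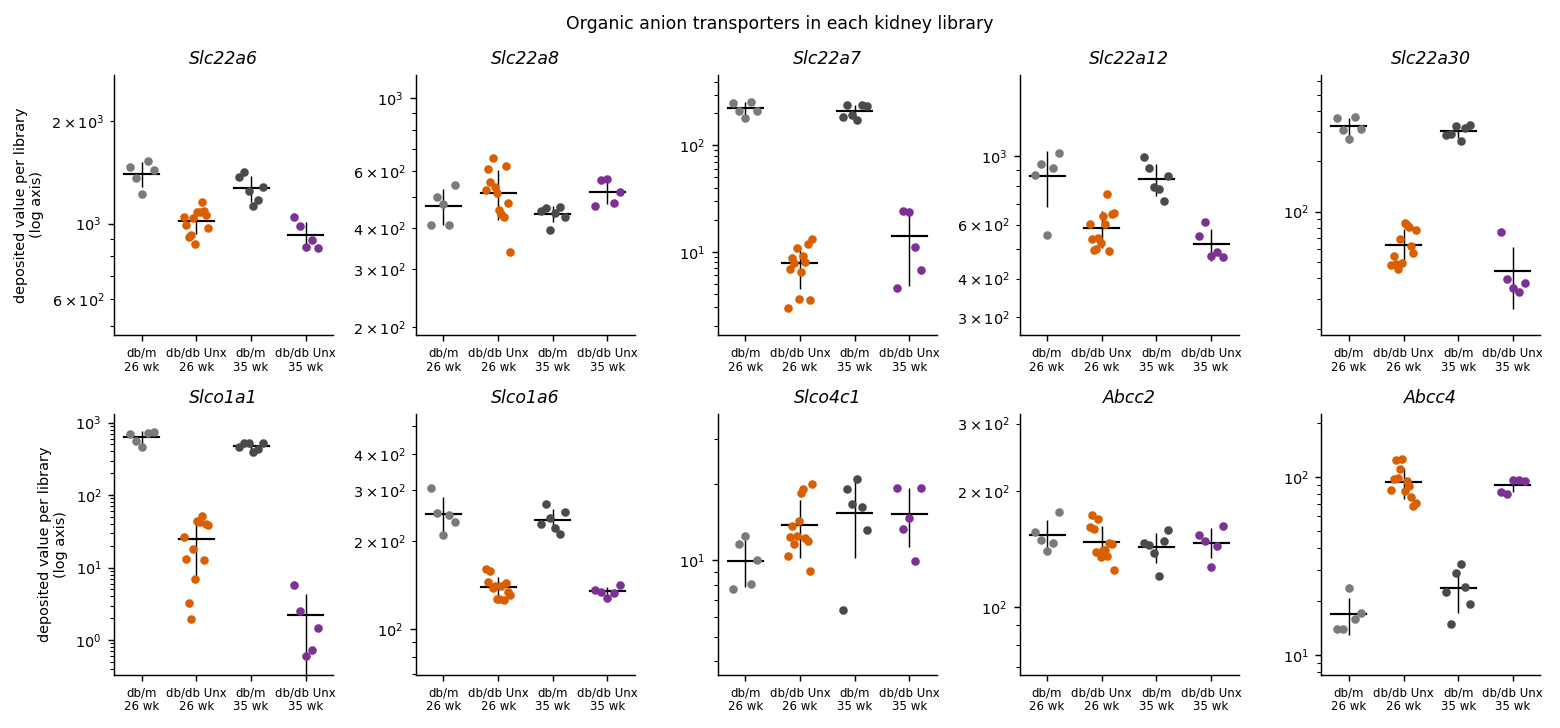
Deposited, scaled value of each transporter in each of the 28 libraries, on log axes with a range of their own in each panel. Horizontal lines are group means and vertical lines ± 1 SD, cut off where they run below the axis. Slco1a1, Slc22a7 and Slc22a30 lie far lower in every db/db Unx library, Abcc4 lies higher, and Slc22a8, Slco4c1 and Abcc2 lie near the db/m level.

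**Figure D2:**
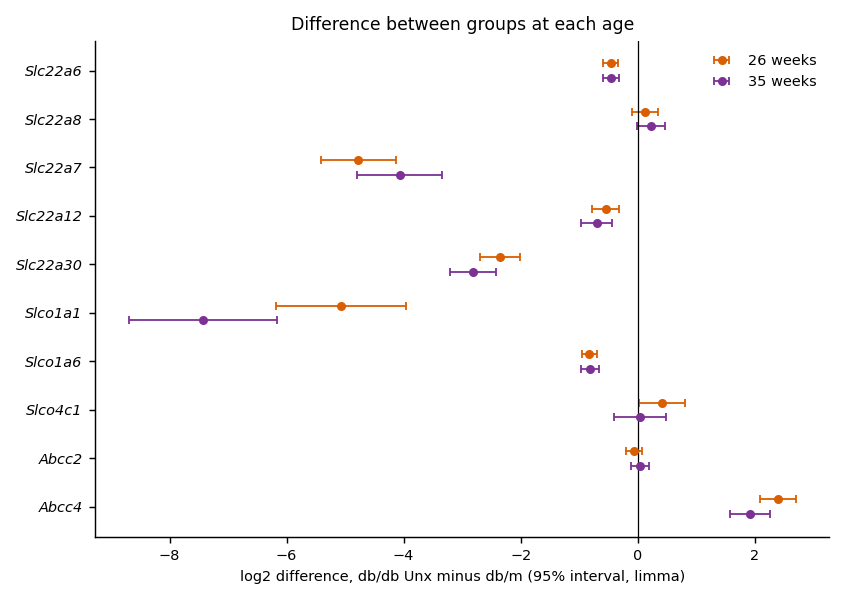
Log2 difference between db/db Unx and db/m for each transporter at 26 weeks (orange) and 35 weeks (purple), with 95% intervals from limma. The intervals of 7 genes lie away from 0 at both ages, and those of Slc22a8 and Abcc2 include 0 at both.

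Among the basolateral uptake transporters, Slc22a6 (ENSMUSG00000024650, GRCm38 chromosome 19, 8618039 to 8628299, plus strand) fell moderately. Its deposited values at 26 weeks were 1469.9, 1359.8, 1217, 1524 and 1438 in the db/m libraries, against a lowest of 871, a median of 1042 and a highest of 1158 in the 12 db/db Unx libraries. At 35 weeks db/m ran from 1125 over a median of 1263 to 1415, and the db/db Unx values were 1048, 984, 852, 897 and 844. No db/db Unx library reached the lowest db/m library of its age. On the log2 scale the difference was -0.46 ± 0.06 at 26 weeks (SE, limma adjusted p = 1.6e-07) and -0.46 ± 0.07 at 35 weeks (adjusted p = 2.71e-06). After quantile normalization, which forces all libraries onto 1 distribution, it was -0.18 and -0.21, still called.

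Slc22a8 (ENSMUSG00000063796, chromosome 19, 8591254 to 8611835, plus strand) encodes OAT3, which shares with OAT1 the basolateral uptake of many drugs and lies beside Slc22a6. Its values at 26 weeks were 409, 499.9, 474, 409 and 544 in db/m, and 339.8, 519 and 656 as lowest, median and highest in db/db Unx. These groups overlapped fully. The 35-week db/m values ran from 397 over 449 to 466, while db/db Unx had 469.5, 560.4, 567, 479 and 516, all just above the db/m range. The log2 difference was 0.12 ± 0.10 at 26 weeks (adjusted p = 0.393 with limma, 95% interval -0.09 to 0.34) and 0.22 ± 0.12 at 35 weeks (adjusted p = 0.16, interval -0.02 to 0.47). With quantile normalization it was called at both ages, at 0.29 (adjusted p = 0.0313) and 0.38 (adjusted p = 0.0148), and with only the 35-week libraries in the fit the adjusted p was 0.0109.

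Slc22a7 (ENSMUSG00000067144, chromosome 17, 46432183 to 46438457, minus strand) encodes OAT2, a carrier of prostaglandins, nucleobases and other anions. It follows the basolateral genes here in order only, and its side of the cell was not examined. At 26 weeks the db/m libraries had 251, 211, 183, 259 and 213, and the db/db Unx libraries 2.94, 7.91 and 13.3 as lowest, median and highest. The db/m libraries of 35 weeks ran from 173 over 216 to 242, and db/db Unx had 4.57, 24.0, 23.4, 11.1 and 6.74. Every db/db Unx library was far below every db/m library, and the db/db Unx libraries of 35 weeks spread 5.25-fold among themselves. Mean values were 28.8-fold lower at 26 weeks and 15.2-fold lower at 35 weeks. Slc22a7 differed by log2 values of -4.78 ± 0.31 (adjusted p = 3.37e-12, limma) and -4.07 ± 0.35 (adjusted p = 1.03e-09). These low values still rested on 76 to 775 estimated reads per library.

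Slco4c1 (ENSMUSG00000040693, chromosome 1, 96816270 to 96872171, minus strand) encodes the basolateral OATP4C1, which takes up digoxin and thyroid hormone. Its values at 26 weeks were 7.69, 11.6, 12.4, 8.09 and 10.0 in db/m, and 9.03, 12.3 and 19.9 as lowest, median and highest in db/db Unx. At 35 weeks db/m ran from 6.39 over 16.4 to 20.9 and db/db Unx had 19.2, 13.3, 14.7, 9.90 and 19.2. The groups overlapped at both ages. The log2 difference was 0.41 ± 0.19 at 26 weeks (adjusted p = 0.0941, limma) and 0.03 ± 0.22 at 35 weeks (adjusted p = 0.935, interval -0.41 to 0.48). The 26-week difference was called after scaling the libraries to the same sum (0.50, adjusted p = 0.0424), with only the 26-week libraries in the fit (0.41, adjusted p = 0.0332), and without db/m 35-week replicate 01 (0.41, adjusted p = 0.0339), which at 6.39 was the lowest of its group.

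On the apical side, Slc22a12 (ENSMUSG00000061742, chromosome 19, 6535845 to 6543032, minus strand) encodes URAT1, the urate reabsorber. Its db/m values at 26 weeks were 873, 947, 556, 918 and 1026, and replicate 03 at 556 lay within the db/db Unx range of 493 to 755, whose median was 572. In the older mice db/m ran from 715 over 828 to 994 and db/db Unx had 549, 612, 473, 489 and 471, without overlap. The log2 difference was -0.55 ± 0.11 at 26 weeks (adjusted p = 4.14e-04, limma; -0.37 and still called after quantile normalization) and -0.70 ± 0.13 at 35 weeks (adjusted p = 1.24e-04). Of the 50-base words in Slc22a12 transcripts, 27.4% also occur in Nrxn2, on the opposite strand, and whether counting used strand is not given in the sources used here. Nrxn2 itself averaged 16.2 in intact and 13.5 in db/db Unx kidneys of 26 weeks.

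The Slco1a genes carry anions at the tubule membrane, and Slco1a1, which encodes OATP1A1, is known in mouse kidney as an apical carrier of sulfated and glucuronidated steroids that depends on androgens. Slco1a1 (ENSMUSG00000041698, chromosome 6, 141907282 to 141946962, minus strand) had the largest log2 difference of the 10 at 35 weeks, and at 26 weeks it lay within its standard error of that of Slc22a7. At 26 weeks its db/m values were 702, 561, 457, 724 and 734, and its db/db Unx values ran from 1.95 over a median of 22.2 to 50.9. At 35 weeks db/m ran from 398 over 492 to 531, and db/db Unx had 5.75, 2.50, 0.604, 0.737 and 1.46, which correspond to 20 to 175 estimated reads. Among db/db Unx kidneys of 26 weeks the highest value was 26.0 times the lowest, whereas the 5 db/m libraries spanned 1.61-fold. For Slco1a1 the log2 difference came to -5.08 ± 0.54 at 26 weeks (adjusted p = 3.11e-08, limma) and -7.43 ± 0.61 at 35 weeks (adjusted p = 4.12e-10). Its mean was 25.5-fold lower at 26 weeks, where that of Slc22a7 was 28.8-fold lower, and 217-fold lower at 35 weeks.

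Slco1a6 (ENSMUSG00000079262, chromosome 6, 142085761 to 142208521, minus strand), its neighbour, fell much less and very evenly. The db/m values were 305, 250.4, 209.7, 248 and 234 at 26 weeks, against 125, 139 and 161 as lowest, median and highest in db/db Unx. At 35 weeks they ran from 212 over 236 to 268, against 137, 134, 128, 133 and 142. Each db/db Unx library was below each db/m library, and the coefficient of variation in db/db Unx was 8.33% at 26 weeks and 3.91% at 35 weeks. Its log2 difference was -0.83 ± 0.06 (adjusted p = 4.96e-13, limma) and -0.81 ± 0.07 (adjusted p = 2.84e-11).

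Slc22a30 (ENSMUSG00000052562, chromosome 19, 8335371 to 8405111, minus strand) belongs to a rodent branch of the family whose substrates are little known. Its db/m values at 26 weeks were 361, 305, 269.9, 366 and 310.1, and those of db/db Unx 45.3, 59.7 and 85.4 as lowest, median and highest. In 35-week kidneys db/m ran from 265 over 303 to 329, and db/db Unx had 75.6, 39.5, 35.0, 32.9 and 37.4. The groups lay far apart at both ages, with means 5.09-fold and 6.84-fold lower. Log2 differences were -2.36 ± 0.17 (adjusted p = 1.22e-11, limma) and -2.81 ± 0.19 (adjusted p = 6.87e-12). Since 34.3% of its 50-base words occur in other genes, and 31.0% in the neighbouring Slc22a28 alone, the division of reads between these paralogs is uncertain. Slc22a12 aside, that share was 6.59% for Slco1a6, 1.64% for Slco1a1 and at most 0.457% for the remaining members.

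The apical pumps differed from each other. Abcc4 (ENSMUSG00000032849, chromosome 14, 118482692 to 118706219, minus strand) encodes MRP4, which exports urate, cyclic nucleotides, prostaglandins and many drugs. Its db/m values at 26 weeks were 14.1, 14, 23.7, 16 and 17.1, and the db/db Unx values ran from 68.9 over a median of 92.3 to 126. At 35 weeks db/m ran from 14.9 over 23.3 to 32.3 and db/db Unx had 82.3, 80.1, 96.3, 96.1 and 94.8. Each db/db Unx library stood above each db/m library by a wide margin. Abcc4 rose by 2.40 ± 0.15 on the log2 scale (adjusted p = 2.33e-13, limma) and by 1.92 ± 0.17 (adjusted p = 4.12e-10).

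Abcc2 (ENSMUSG00000025194, chromosome 19, 43782192 to 43840740, plus strand) encodes MRP2, which exports glutathione and glucuronide conjugates. At 26 weeks it had 157, 149.8, 139.9, 147 and 177 in db/m, and 125, 144 and 173 as lowest, median and highest in db/db Unx. For 35 weeks the db/m values ran from 120.4 over 146 to 159, and db/db Unx had 154, 149, 128, 144 and 163. The groups overlapped at both ages. The log2 difference was -0.06 ± 0.07 (adjusted p = 0.525, limma) and 0.04 ± 0.08 (adjusted p = 0.732), and the 95% intervals ran from -0.20 to 0.08 and from -0.12 to 0.20.

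Age was compared within each genotype. In db/db Unx, 2 of the 10 transporters were lower at 35 than at 26 weeks, Slco1a1 and Slc22a30, and 0 were higher, where 6.14% of all genes were called lower and 5.16% higher. Slco1a1 fell by 2.75 ± 0.54 on the log2 scale (adjusted p = 0.0021, limma), and 4 of the 5 35-week libraries, at or below 2.50, were lower than 11 of the 12 26-week libraries. Slc22a30 fell by 0.55 ± 0.17 (adjusted p = 0.0327), a call that was lost without db/db Unx 35-week replicate 02, 03, 05 or 06 (adjusted p from 0.059 to 0.137). Without replicates 03, 05 and 06 together, which lay apart from the other libraries on the second principal component in earlier work on these data, the log2 difference of Slco1a1 was -1.93 (adjusted p = 0.547) and that of Slc22a30 -0.17 (adjusted p = 0.931). Only 8 of all genes were then called, with 2 libraries in the group. Slc22a7 had a log2 difference of 0.64 ± 0.31 (adjusted p = 0.2), and 0.93 (adjusted p = 0.0477) without replicate 01. In db/m 0 of the 10 were called in either direction by limma, against 2.73% of all genes higher and 4.68% lower. The fit shares 1 spread per gene over all groups. For Slco1a1 (-0.39 ± 0.61, limma adjusted p = 0.776) it therefore does not measure the spread of db/m alone. Its coefficient of variation at 26 and 35 weeks was 19.2% and 11.5% in db/m, against 70.9% and 95.9% in db/db Unx. The lowest adjusted p among the alternatives was 0.106. At an unadjusted p below 0.05, Slco4c1 (0.52 ± 0.22, adjusted p = 0.152) and Abcc4 (0.44 ± 0.17, adjusted p = 0.119) were higher with age in db/m. Slc22a6 was lower (-0.14 ± 0.07, adjusted p = 0.227). The share of all genes at that unadjusted threshold was not counted. Leaving out db/m 35-week replicate 01 brought Slco4c1 to 0.74 (adjusted p = 0.00892), and Abcc4 was called without db/m 26-week replicate 03 (0.56, adjusted p = 0.0404) or 35-week replicate 02 (0.56, adjusted p = 0.0269).

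Whether the disease difference changed from 26 to 35 weeks was tested as an interaction. It called 0 of the 10 transporters in limma, where 0.393% of all genes were higher and 0.156% lower. At an unadjusted p below 0.05, Slco1a1 (-2.36 ± 0.82, adjusted p = 0.191) and Abcc4 (-0.48 ± 0.22, adjusted p = 0.377) were lower. The share of all genes at that unadjusted threshold was not counted, so these are not read as a result. The 95% interval for Slco1a1, -4.05 to -0.67, shows how loosely its spread among db/db Unx libraries fixed this value.

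Members of these families lie in gene clusters, and neighbours differed in direction and size. On chromosome 19, the order of the tested genes from the lowest coordinate was Slc22a19, Slc22a26, Slc22a28, Slc22a29, Slc22a30, Slc22a8 and Slc22a6. At 26 weeks Slc22a19, Slc22a26, Slc22a28 and Slc22a30 fell, with log2 differences of -2.03, -2.83, -2.13 and -2.36, while Slc22a29 between them rose by 0.90 ± 0.23 from a mean of 1.24 (limma adjusted p = 0.00195). Slc22a8 and Slc22a6, which are read from the opposite strand, differed by 0.12 and -0.46. Slc22a27 did not pass the filter on low values. On chromosome 6 Slco1a4, Slco1a1 and Slco1a6 had log2 differences of -2.18, -5.08 and -0.83, all called. The cluster genes share sequence, and how the reads of near copies were divided is not given in the sources used here.

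**Figure D3:**
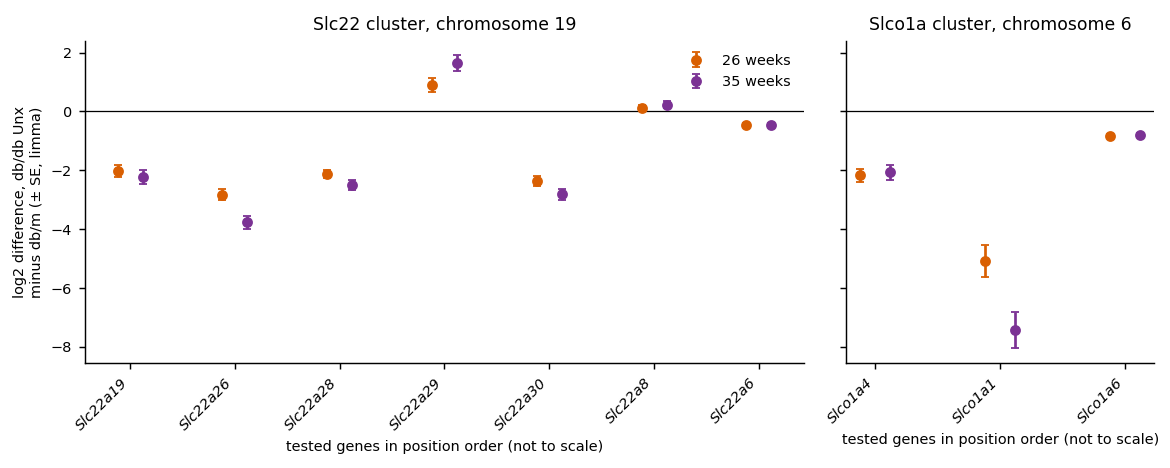
Log2 differences (± SE, limma) of the tested Slc22 genes on chromosome 19 and Slco1a genes on chromosome 6, in position order and not to scale, at 26 weeks (orange) and 35 weeks (purple). Slc22a29 lies above 0 between Slc22a28 and Slc22a30, which lie below it, and Slco1a6 lies closer to 0 than Slco1a1.

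The 12 db/db Unx kidneys of 26 weeks were used to ask which transporters varied together among diseased kidneys. Pearson's r was taken over log2(value + 1) for all 45 pairs, with 100000 permutations, two-sided, and Benjamini-Hochberg adjustment over the pairs. Slco1a1 varied with Slc22a12 (r = 0.86, rho = 0.89, p = 4e-04 and 0.00033, adjusted p = 0.018 and 0.0074). Leaving out the 2 libraries farthest from the median of Slc22a12 gave r = 0.93. For each pair these 2 were chosen anew, on the gene that comes first in the list of the 10. Slco1a1 also varied with Slc22a30 (r = 0.78, rho = 0.80, permutation p = 0.0036 and 0.0027, adjusted p = 0.0467 and 0.0239; r = 0.72 without the 2 of this pair). With Slc22a6, r was 0.76 and rho 0.73 (permutation p = 0.0042 and 0.0095, adjusted p = 0.0467 and 0.0709; r = 0.68 without the 2). Slc22a8 went the other way, with r = -0.78 and rho = -0.88 against Slc22a12 (permutation p = 0.0024 and 0.00033, adjusted p = 0.0467 and 0.0074; r = -0.83 without the 2) and r = -0.74, rho = -0.82 against Slco1a1 (permutation p = 0.0057 and 0.0019, adjusted p = 0.0514 and 0.0239; r = -0.72). Slco1a6 and Abcc2 were called by rank alone (r = 0.70, rho = 0.81, permutation p = 0.0121 and 0.0021, adjusted p = 0.0775 and 0.0239; r = 0.67 without the 2). In all 4 pairs were called by r, of 14 at an unadjusted p below 0.05, and 5 by rho, with 3 called by both. The libraries with the most Slco1a1 thus had more Slc22a12, Slc22a30 and Slc22a6 and less Slc22a8. The highest values of Slco1a1, 39.0 to 50.9, were those of replicates 07, 08, 09, 11 and 12, and the rest lay at or below 26.3. In the same 5 libraries Slc22a12 was 603 to 755, against 493 to 602 in the rest, and Slc22a8 was 339.8 to 477, against 513 to 656. The other 2 genes overlapped: Slc22a6 was 968 to 1158 against 871 to 1085, and Slc22a30 56.7 to 85.4 against 45.3 to 68.3. This split of the libraries was made with the values known. The labels name no batch for these libraries, and whether preparation contributed was not tested. With 1 library left out, the number of called pairs lay between 0, without replicate 03, and 7, without replicate 10. It was 1 without replicate 02, 04, 05, 06, 07 or 08, and 2 without 09 or 11, while r of Slco1a1 with Slc22a12 stayed between 0.84 and 0.89.

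**Figure D4:**
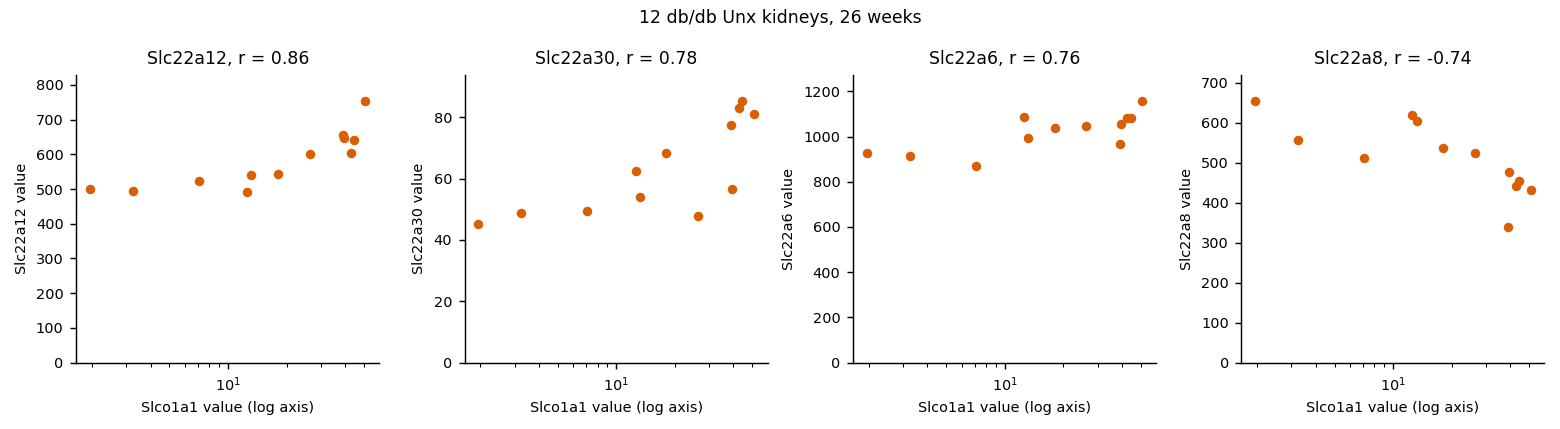
Values of 4 transporters (linear axes from 0) against Slco1a1 (log axis) in the 12 db/db Unx kidneys of 26 weeks, 1 point per library, with Pearson's r of the log2(value + 1) values. Slc22a12, Slc22a30 and Slc22a6 are higher, and Slc22a8 lower, where Slco1a1 is higher.

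The same 12 libraries were set against 4 marker sums and the estimated depth, 50 relations chosen after the pair correlations had been seen. The sum of 8 male-biased kidney genes came mostly from Kap and Cyp4b1. Its variation came mainly from Kap, with an SD of 789 in these libraries, against 198 for Cyp2e1 and 162 for Cyp4b1. A sum without Kap was not tested. Slco1a1 followed this sum with r = 0.91 and rho = 0.87 (permutation p = 3e-05 and 0.00062, adjusted p = 0.0015 and 0.0177), and r = 0.87 without the 2 libraries farthest from its own median. Slc22a30 did so with r = 0.89 and rho = 0.84 (permutation p = 0.00031 and 0.0012, adjusted p = 0.00775 and 0.0207; r = 0.85). These 2 relations were called with any 1 library left out. Slc22a30 also followed the summed segment 3 markers (r = 0.84, rho = 0.85, permutation p = 0.00096 and 0.00071, adjusted p = 0.016 and 0.0177; r = 0.77). That call was lost on leaving out 1 library in 1 of 12 cases. The largest parts of the segment 3 sum in these libraries were Slc6a18 (mean 414), Atp11a (213) and Slc5a1 (155). Slc7a13 (55.5) and Cyp7b1 (37.4) added little. The male-biased sum was also called with Slc22a6 (r = 0.77, rho = 0.79, permutation p = 0.0042 and 0.0033, adjusted p = 0.0348 and 0.0411; r = 0.64) and with Slc22a12 (r = 0.77, rho = 0.71, permutation p = 0.0040 and 0.0116, adjusted p = 0.0348 and 0.0969; r = 0.87). Slc22a8 ran against it (r = -0.73, rho = -0.75, permutation p = 0.0067 and 0.0072, adjusted p = 0.0476 and 0.0722; r = -0.68). Slco4c1 was called with the segment 3 sum (r = 0.78, rho = 0.64, permutation p = 0.0033 and 0.0279, adjusted p = 0.0348 and 0.128; r = 0.54). These last 4 were less stable: with 1 library left out the call was lost in 8, 9, 11 and 7 of 12 cases, in the order given. In all 7 relations were called by r, and 0 of them involved the estimated depth.

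**Figure D5:**
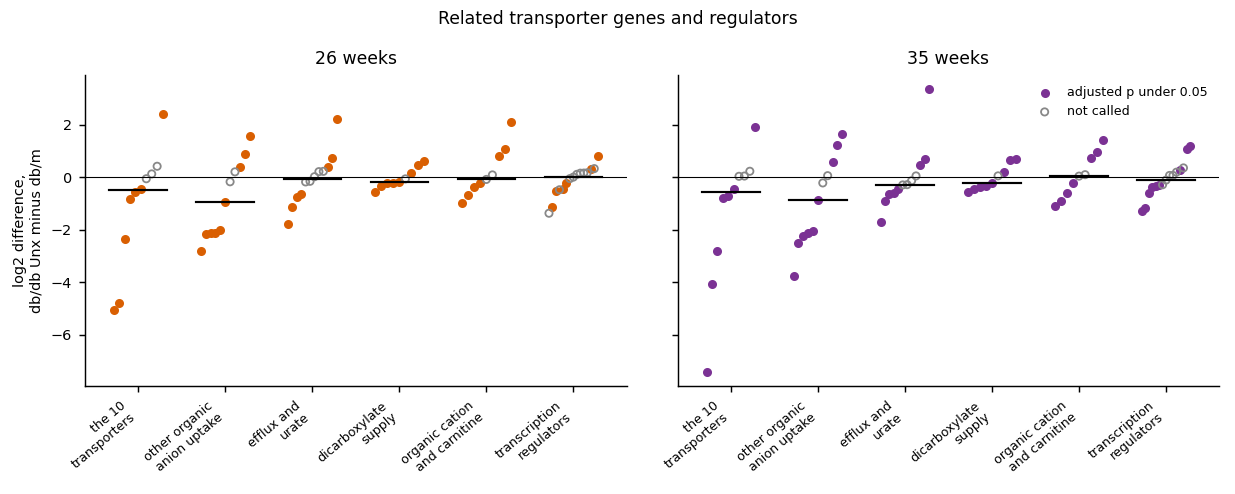
Log2 differences of the 10 transporters and of 5 lists of related genes at 26 and 35 weeks. Each point is 1 tested gene, filled where the limma adjusted p was below 0.05, and horizontal lines are list medians. Genes of the other uptake transporters reach below -2 in 5 cases at 26 weeks, and every list holds genes on both sides of 0.

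Other genes of the pathway were read from lists, by counts and medians. Of 11 tested genes of other organic anion uptake transporters, 3 were higher and 6 lower at both ages, with medians of -0.96 and -0.88. Slc22a26 went from 13.7 ± 2.60 to 1.13 ± 0.646 at 26 weeks (log2 -2.83 ± 0.19, limma adjusted p = 1.78e-14), and Slc22a28 from 308 ± 48.9 to 69.9 ± 13.3 (-2.13). Slc22a22, a prostaglandin carrier, went from 130 ± 13 to 29.3 ± 6.51 (-2.14) and Slco3a1 from 381 ± 39.6 to 197 ± 28 (-0.96). The lower genes included Slc22a19, Slc22a26 and Slc22a28 of the chromosome 19 cluster.

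Of 12 tested genes for efflux and urate transport, 3 were higher and 4 lower at 26 weeks and 3 and 5 at 35 weeks, with medians of -0.07 and -0.29. The urate exporter gene Slc17a3 fell from 795 ± 116 to 229 ± 34.6 at 26 weeks (log2 -1.79 ± 0.11, limma adjusted p = 3.99e-13), and its neighbour in function Slc17a1 from 881 ± 75.7 to 517 ± 35.3 (-0.77). Slc51a, a subunit of the basolateral bile acid and steroid exporter, fell from 133 ± 22.6 to 59.3 ± 7.79 (-1.14). Abcc3, which encodes the basolateral pump MRP3, rose from 1.53 ± 0.556 to 11.0 ± 3.26 (2.22 ± 0.22, adjusted p = 5.16e-10), and its log2 difference at 35 weeks was 3.37. Abcc3 thus rose with Abcc4, while the exporters of the Slc17 family fell.

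The dicarboxylate gradient that drives OAT1 and OAT3 is kept by other carriers. A list of 9 genes joined dicarboxylate carriers with sulfate and lactate carriers and the scaffold Pdzk1, and of these 3 were higher and 5 lower at both ages, with medians of -0.19 and -0.23. Slc13a2, the apical sodium-dependent citrate and dicarboxylate carrier, rose from 90.4 ± 8.23 to 138 ± 19.4 at 26 weeks (log2 0.60 ± 0.10, limma adjusted p = 8.61e-06), and the sulfate carrier gene Slc13a1 rose by 0.48. Pdzk1, the scaffold that anchors several apical transporters, fell from 1767 ± 119 to 1207 ± 102 (-0.55 ± 0.06, adjusted p = 2.37e-09), and the lactate carrier gene Slc5a8 fell by 0.33. Slc13a3, the basolateral dicarboxylate carrier, is given here after its values were seen. At 26 weeks its mean was 512 ± 52.1 in db/db Unx against 591 ± 37.9 in db/m (-0.21 ± 0.07, adjusted p = 0.0152 with limma), and at 35 weeks the log2 difference was 0.05 ± 0.08 (adjusted p = 0.69).

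Transporters of organic cations and carnitine served as the parallel secretory system, with 3 of 9 tested genes higher and 4 lower at both ages and medians of -0.09 and 0.04. The basolateral cation uptake gene Slc22a2 (OCT2) fell from 475 ± 39.6 to 241 ± 26.2 at 26 weeks (log2 -0.98 ± 0.06, limma adjusted p = 4.79e-15), and the apical exporter gene Slc47a1 (MATE1) from 658 ± 83.6 to 411 ± 32.4 (-0.67). Slc22a4 fell by 0.36. Abcb1b, a gene of the P-glycoprotein pump, rose from 1.96 ± 1.94 to 9.90 ± 2.12 (2.10 ± 0.24, adjusted p = 1.57e-08). Both secretory systems thus held lower uptake genes beside at least 1 higher ATP-driven pump.

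Among 15 genes of transcription factors known to regulate such transporters, 2 were higher and 4 lower at 26 weeks and 3 and 6 at 35 weeks, with medians of 0.00 and -0.11. Esr1, the estrogen receptor alpha gene, fell from 12.2 ± 0.589 to 5.10 ± 1.17 at 26 weeks (log2 -1.14 ± 0.15, limma adjusted p = 1.88e-07). Nr3c1, the glucocorticoid receptor gene, fell by 0.44. Nr1i2, which encodes the pregnane X receptor, rose from 1.16 ± 0.331 to 2.86 ± 0.862 (0.82 ± 0.18, adjusted p = 3.38e-04). Cebpb had a log2 difference of 0.17 (adjusted p = 0.465) at 26 weeks and rose by 1.08 at 35 weeks (adjusted p = 4.39e-05).

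By a fixed measure of likeness, the root mean square difference of the 4 centred group means of log2(value + 1), the genes nearest to Abcc4 were Hacl1 (0.079), Gldc (0.10) and Slc7a12 (0.17). Those nearest to Slco1a1 were Alox15 (0.89), Slc7a13 (1.09) and Acsm3 (1.22), and those nearest to Slc22a7 were Gm853 (0.33), Srd5a2 (0.33) and Acsm3 (0.46). Hacl1, a peroxisomal lyase gene, averaged 42.2 ± 7.62 in intact and 198 ± 20.1 in db/db Unx kidneys of 26 weeks. No gene came as close to Slco1a1 as Hacl1 to Abcc4. The measure is not scaled to the size of the change, which was larger for Slco1a1. It therefore does not compare how distinct these patterns are.

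Cell type and sex-related markers also differed between db/db Unx and db/m, in both directions. The summed level of 16 proximal tubule markers at 26 weeks was 22909 to 25470.5 in db/m against 18252 to 21363 in db/db Unx, and 22603 to 25337 against 17391 to 19078 at 35 weeks, and none of the 16 was at 0. Of these markers 6 were higher and 8 lower at 26 weeks and 3 and 8 at 35 weeks, with medians of -0.16 and -0.19. Ggt1 fell by 0.93 and Lrp2 by 0.56 at 26 weeks, while Slc7a8 rose by 1.00 and Slc7a7 by 0.68. Segment 1 markers had 3 of 5 higher and 0 lower at 26 weeks and 1 and 0 at 35 weeks. The called ones, Slc7a7, Slc7a8 and Gatm, are also among the 16 markers above and are not separate evidence. Slc5a2 and Slc5a12, listed for segment 1 alone, were called at neither age. Their limma adjusted p was 0.113 and 0.328 at 26 weeks, and 0.53 and 0.531 at 35 weeks. Segment 3 markers had 1 higher and 3 lower, then 2 and 3, and their sum at 26 weeks was 2013 to 2419 in db/m against 783 to 1017 in db/db Unx, and 2037 to 2346 against 965 to 1082 at 35 weeks. Within that list Slc7a13 fell by 3.77 and Slc5a1 rose by 0.85. All 8 genes listed as male-biased were lower at both ages, with medians of -2.34 and -2.60. Of 3 genes listed as female-biased, Cyp4a14 and Prlr were higher and Cyp2a4 lower. All libraries came from male mice, so the sex bias of the listed genes could not be checked here. Injured tubule markers were higher for 7 of 8 and then 8 of 8. The part of any of these in the transporter differences was not tested. In whole-kidney RNA, fewer cells of a type and less RNA per cell cannot be told apart.

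Other kidney cells were read the same way at 26 and 35 weeks, as markers higher and lower of the number tested. For the thick ascending limb these were 3 and 1, then 1 and 2, of 5, for the distal convoluted and connecting tubule 4 and 0 at both ages of 5, and for principal cells 3 and 0, then 2 and 0, of 5. For podocytes they were 2 and 0, then 3 and 0, of 5, for leukocytes 0 and 2, then 0 and 0, of 4, and for adrenal genes 0 and 0 at both ages of 2. Estimated depth ran from 21.8 to 30.8 M reads (M, mega) and 22.4 to 33.9 reads stood behind 1 unit of the deposited value.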

How the data were processed

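The authors deposited 1 table of scaled signal values per gene for the 28 libraries. DRAGEN and the build GRCm38 (mm10) are named in the submitters' processing notes; version, annotation and scaling were not given in the sources used here. Values as deposited by the authors lay on multiples of a hundredth of 1 step per library, and 88.1% to 91.1% of low values were within 0.1 of a whole multiple. They were read as estimated reads times 1 factor per library and used as deposited. Column sums were 896873 to 1018934, and 0 columns belonged to no sample.

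GENCODE M21 gave symbols, positions and exon lengths for 14834 of the 14845 identifiers. Genes reaching 1 in 5 or more libraries were fitted as log2(value + 1) with limma 3.58.1 (R 4.3.3), with 1 mean per group, a trend and robust moderation. All groups shared 1 estimate of the spread per gene. Tests were two-sided, with Benjamini-Hochberg adjustment over 13495 genes. Scripts were tested on simulated data. Permutation tests of correlations ran in numpy 2.4.6. Means are arithmetic and log2 differences carry moderated standard errors, and the pseudocount understates changes of low genes. Outside the 10 transporters, up to 4 called genes per list with the smallest adjusted p were named, and cluster neighbours, Nrxn2 and genes nearest in pattern besides. The members and lists were chosen with earlier results of these data known. The alternatives tried are given in the closing section.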

Additional observations from a re-analysis of the deposited data

Results flagged for a closer look

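Slc22a30 in db/db Unx 35-week replicate 01 had a value of 75.6, apart from the other 4 libraries of its group, which had at most 39.5. It was the only one of 30 groups (10 transporters in the 3 groups of 5, 5 and 6 libraries) whose highest or lowest library stood this far out by Dixon's criterion, and chance marks about 1 in 20 such groups. The same library had the highest Slco1a1 of its group, 5.75. Without it, Slc22a30 kept a log2 difference between the ages of -0.76 (limma adjusted p = 0.0012).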

How the results depend on the processing

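Each limma result was recomputed under 39 alternatives (38 for the interaction, which needs all 4 groups): 28 left out 1 library and the others changed the pseudocount, filter, scaling, moderation, block or libraries. The 14 called differences between db/db Unx and db/m (7 transporters at 2 ages) kept direction and call in all 546 recomputations, and no called result reversed direction. Many of these recomputations left the estimate unchanged by construction. They were those of the filter, the moderation, only the groups compared, and libraries left out at the other age. These could change the call but not the direction. The number of transporters called higher at 26 weeks went from 1 to 2 with libraries scaled to the same sum, with quantile normalization and with only the groups compared, and lay between 1 and 2 with 1 library left out. At 35 weeks it went to 2 with quantile normalization and with only the groups compared. In the age comparison of db/db Unx the number lower went to 1 with only the groups compared, and with 1 library left out the numbers were 1 to 2 lower and 0 to 1 higher. In db/m it was 0 to 1 higher.

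Without db/db Unx 35-week replicates 03, 05 and 06 the genes called fell to 2408 in the 35-week disease comparison, 8 in the age comparison of db/db Unx (with 0 transporters lower) and 0 in the interaction, where 2 libraries were left in the group. With 1 library left out they ran from 4176 to 4778 at 26 weeks, 3743 to 4396 at 35 weeks, 630 to 1748 for age in db/db Unx (630 without 35-week replicate 05, 756 without 06), 578 to 1140 for age in db/m (578 without 26-week replicate 05) and 7 to 249 for the interaction (7 without db/db Unx 35-week replicate 05, 249 without 02), and called pairs from 0 to 7. Plain moderation gave 41 genes for the interaction, against 74. Scaling to the same sum raised the share of calls that were higher from 49.2% to 68.6% at 26 weeks, 49.3% to 62.4% at 35 weeks, 45.7% to 60.5% for age in db/db Unx and 36.8% to 63.8% in db/m, and the median of all genes at 26 weeks from 0.02 to 0.11.

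Same-numbered libraries did not deviate together: between db/m and db/db Unx their deviations correlated at -0.06 to 0.006 at 26 weeks and -0.03 to 0.08 at 35 weeks, and between ages at -0.14 to 0.04 in db/db Unx and -0.10 to -0.0004 in db/m. Replicate numbers 07 to 12 occurred in db/db Unx of 26 weeks alone. A replicate block therefore took those libraries out of every comparison with that group. Among them, 07, 08, 09, 11 and 12 had its lowest Slc22a8 values, 339.8 to 477, and 10 had 619. With the block, Slc22a8 was called higher at 26 weeks (0.29, adjusted p = 0.00328, limma) and 35 weeks (0.23, adjusted p = 0.0181), giving 2 transporters higher at each age. The 26-week call thus rested on part of the db/db Unx libraries. Abcc4 was called higher with age in db/m (0.44, adjusted p = 0.0278), giving 1 higher. Slc22a30 was no longer called with age in db/db Unx (-0.31, adjusted p = 0.324), leaving 1 lower. The block gave 483 genes for age in db/db Unx and 29 for the interaction, and changed 4 of 50 transporter calls. The 35-week values of Slco1a1 in db/db Unx, at 20 to 175 estimated reads, are the least deep.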
